A study of Mus musculus with 8 samples.

Results

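The olfactory receptor genes of the mouse autosomes served as a gene family taken to be silent in liver, and the level of RNA polymerase II (Pol II) ChIA-PET signal over them was measured in that tissue. The members were all protein-coding genes of the RefSeq table (GRCm38.p6, the build also named mm10) whose symbol begins with Olfr and which lie on an autosome, each with 2.5 kb on either side, called a window below. There were 1104 such genes among 20665 autosomal protein-coding genes. Of the 1104, 1103 were placed within the span of the deposited positions. Olfr100 lies at 80755 to 81681 on chromosome 17, below the lowest position of any deposited tag on that chromosome, and is given no value. The rule uses symbols and coordinates only.

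Olfactory receptors are G protein-coupled receptors for odorants, and they form the largest gene family of the mouse. Each olfactory sensory neuron transcribes a single receptor gene from a single allele. The others lie in tandem clusters under heterochromatin, and in olfactory neurons clusters of different chromosomes gather in common nuclear foci. In liver the family is generally regarded as silent, so it can serve as a measure of what a Pol II pull-down recovers without transcription. Expression was not measured in this series, and the silence of the members is background knowledge here, not a result.

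ChIA-PET joins DNA ends held in one crosslinked, immunoprecipitated complex through a linker and reads a short tag on each side, giving a paired-end tag (PET). Livers came from wild-type C57BL/6 mice of 3 to 6 months, kept in 12 h of light and 12 h of dark with free access to food. They were taken at ZT6, the middle of the day, or at ZT18, the middle of the night, and chromatin from 3 to 7 livers was combined before the pull-down with the Pol II antibody 8WG16. The experiments JM08 (4 libraries) and JM12 (2 libraries) were crosslinked with 1.5 mM EGS and 1% formaldehyde, and JM11 (2 libraries) with 1% formaldehyde alone, with equal numbers of day and night libraries in each. Whole liver holds several cell types, and the deposited table pools the libraries of an experiment, so neither cell types, time points nor replicate libraries can be told apart. Each experiment is therefore 1 value without replicates, its 95% interval covers counting error only, and the experiments differ in crosslinking as well as in batch.

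The table held 474478 PETs for JM08, 1438866 for JM11 and 840210 for JM12. Windows of abundant hepatocyte genes carried far more ends than the autosomal mean. The median over 10 hepatocyte markers was 43.0 times the mean in JM08, 5.74 in JM11 and 9.77 in JM12. Of the markers, 9 were above the mean in all 3 experiments. The exception was Serpina1a, a member of a family of near-identical antitrypsin genes. Of the genes that define olfactory sensory neurons, 1 of 11 was above the mean in all 3 experiments, the G protein subunit gene Gnal, against 39.2% of all autosomal protein-coding genes. The list lay near the mean, with medians of 0.991 in JM08, 1.10 in JM11 and 1.15 in JM12. Omp, the defining marker of the mature neuron, had 7, 5 and 7 ends in JM08, JM11 and JM12, or 2.57, 0.604 and 1.45 times the mean.

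The 250 bases before the annotated start were available from RefSeq for 938 of the 1103 placed members (85.0%). Together with the 50 bases that follow, their GC content had a median of 35%, against 57.7% for 15518 other autosomal protein-coding genes, and the median number of CG dinucleotides was 1 against 15. The model of 680 members (72.5%) started at an ATG, so for these the annotated start is the start of the coding exon and not a start site of transcription. This was so for 5.17% of the other genes. The motifs searched, which stand for the TATA box and for factors of receptor choice, numbered 3 and were read on both strands of the 250 bases. TATAAA, the core of the TATA box, was in 39.3% of the members and in 13.0% of all 27025 promoters of the table. TAATTA, a homeodomain core such as Lhx2 recognises, was in 18.2% and 4.90%. CCCNNGGG, a core bound by Ebf factors, was in 2.77% and 11.7%. Among the 258 members whose model does not start at an ATG, the shares were 31.4% for TATAAA, 17.8% for TAATTA and 7.36% for CCCNNGGG. A match describes the letters only.

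The 6 sequences printed here are those on which the account turns: the upstream region shared by a pair of members without any end, 3 receptors reported outside the nose, of which Olfr16 is also among the highest windows, and the 2 members with the highest windows. They are 250 bases each, 5′ to 3′ on the gene's own strand, with matches to TATAAA or TAATTA on either strand in capitals. None of these gene models starts at an ATG. Olfr1506 (chr2:90224472-90224721, minus strand) and Olfr1565 (chr2:90321972-90322221, plus strand) had identical upstream sequences, printed once. The others are Olfr16 (chr1:172956518-172956767, plus strand), Olfr544 (chr7:102488308-102488557, minus strand), Olfr734 (chr14:50320869-50321118, minus strand), Olfr556 (chr7:102669651-102669900, plus strand) and Olfr1496 (chr19:13780298-13780547, plus strand), all on GRCm38.p6.
Olfr1506: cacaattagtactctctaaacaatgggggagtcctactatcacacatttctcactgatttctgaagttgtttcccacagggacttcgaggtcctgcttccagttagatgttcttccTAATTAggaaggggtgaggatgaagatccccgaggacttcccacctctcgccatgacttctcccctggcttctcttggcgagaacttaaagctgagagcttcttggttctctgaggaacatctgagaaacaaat
Olfr16: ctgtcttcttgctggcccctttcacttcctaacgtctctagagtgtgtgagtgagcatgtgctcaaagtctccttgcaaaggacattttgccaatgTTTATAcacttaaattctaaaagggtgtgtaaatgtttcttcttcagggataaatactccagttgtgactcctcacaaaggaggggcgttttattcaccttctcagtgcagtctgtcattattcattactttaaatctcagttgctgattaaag
Olfr544: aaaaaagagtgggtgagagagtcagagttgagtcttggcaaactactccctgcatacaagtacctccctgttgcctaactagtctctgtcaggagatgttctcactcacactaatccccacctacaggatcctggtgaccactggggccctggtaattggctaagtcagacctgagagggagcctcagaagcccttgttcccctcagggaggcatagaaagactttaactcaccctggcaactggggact
Olfr734: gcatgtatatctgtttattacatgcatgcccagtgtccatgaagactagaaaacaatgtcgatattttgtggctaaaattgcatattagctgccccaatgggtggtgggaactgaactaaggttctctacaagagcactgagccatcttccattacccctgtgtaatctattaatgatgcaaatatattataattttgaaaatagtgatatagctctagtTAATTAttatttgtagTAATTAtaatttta
Olfr556: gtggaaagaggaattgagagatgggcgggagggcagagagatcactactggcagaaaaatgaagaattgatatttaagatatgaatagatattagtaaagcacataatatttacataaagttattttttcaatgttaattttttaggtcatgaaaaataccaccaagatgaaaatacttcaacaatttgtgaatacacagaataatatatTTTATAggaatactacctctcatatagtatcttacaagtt
Olfr1496: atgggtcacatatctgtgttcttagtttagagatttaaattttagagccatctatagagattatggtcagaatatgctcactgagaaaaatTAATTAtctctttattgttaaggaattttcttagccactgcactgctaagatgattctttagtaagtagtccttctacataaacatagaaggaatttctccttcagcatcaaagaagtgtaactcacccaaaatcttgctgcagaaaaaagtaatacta
Olfr544 held neither motif, and Olfr734 held TAATTA at 2 places.

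The Olfr windows were merged into 1072 stretches covering 7558062 bases, 0.315% of the autosomal span, and held 14158 of 5365532 autosomal PET ends, 0.264%. The density of ends per base was expressed relative to the autosomal mean of the same experiment. It was 0.831 (95% interval 0.797 to 0.866) in JM08, 0.933 (0.913 to 0.954) in JM11 and 0.682 (0.659 to 0.705) in JM12. All intervals lay below 1 and none overlapped another. Over the 3 experiments this was 0.815 ± 0.127 (SD, n = 3), against 1.20 ± 0.0860 (SD, n = 3) over the windows of the other protein-coding genes. The ranges did not overlap, since the lowest value over other genes was 1.11, in JM11.

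The reference changed how far the family stood below the rest. Relative to stretches of at least 500 kb without a protein-coding gene, the density over Olfr windows was 1.02 (0.978 to 1.06) in JM08, 0.954 in JM11 and 0.883 in JM12. The family was therefore above this reference in JM08, with an interval that includes 1, and below it in the other experiments. The gaps themselves were at 0.815, 0.978 and 0.772 of the autosomal mean. Of the 1 kb bins in the gaps, 25.5% held no end in any experiment, against 23.2% in Olfr windows. With such bins left out everywhere, the gaps were at 0.847, 1.02 and 0.802 of the remaining autosomal bins. The Olfr windows were then at 0.842, 0.945 and 0.693, so they were not above the gaps in JM08 by that measure.

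PETs with ends at most 8 kb apart were the most depleted over the Olfr windows. Their relative density was 0.506 (0.433 to 0.587) in JM08, 0.574 (0.491 to 0.667) in JM11 and 0.458 (0.395 to 0.529) in JM12, each against the autosomal mean of that class. For PETs on one chromosome over 8 kb apart it was 0.774 (0.628 to 0.943), 0.954 (0.866 to 1.05) and 0.641 (0.548 to 0.746). For PETs between chromosomes it was 0.935 (0.895 to 0.978), 0.958 (0.936 to 0.980) and 0.726 (0.700 to 0.752). In every experiment the interval of the short class lay below those of both other classes. Over other protein-coding genes the order was the opposite, with 1.53, 1.34 and 1.38 for the short class and 1.18, 1.09 and 1.21 between chromosomes.

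**Figure D1:**
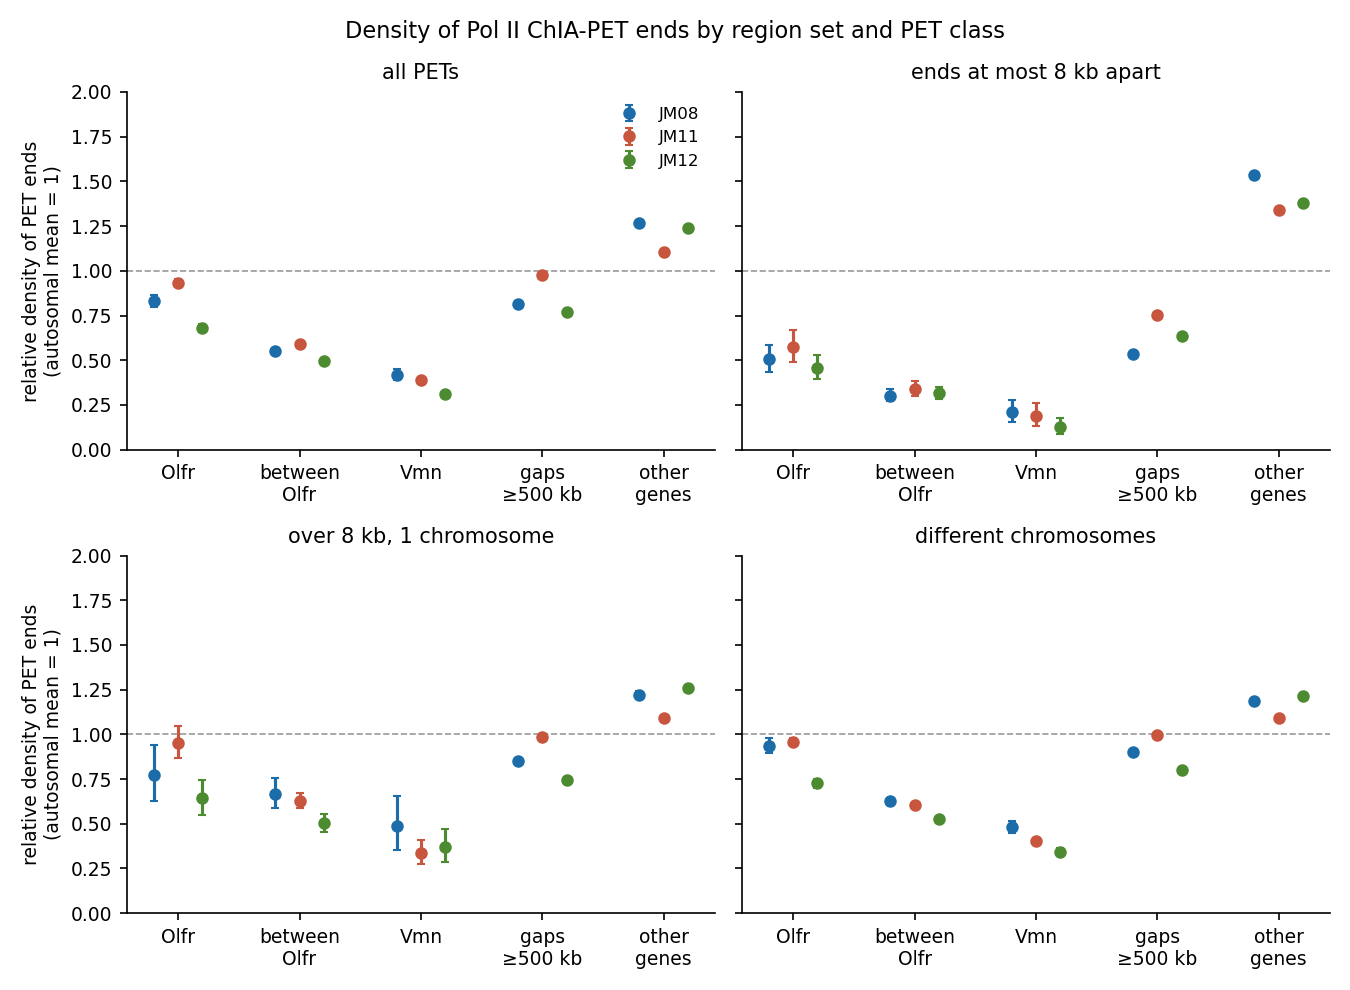
Relative density of PET ends (y axis, autosomal mean of the same class and experiment = 1) over Olfr windows, the DNA between them inside their clusters, Vmn receptor windows, gaps of at least 500 kb between protein-coding genes and other protein-coding genes, for all PETs and for 3 classes of PET. Points are experiments and bars are 95% intervals from counting alone. The Olfr points lie at 0.458 to 0.574 in the class at most 8 kb apart and at 0.726 to 0.958 between chromosomes.

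The makeup of the PETs was compared as well, as shares of the PETs touching a set. Among PETs touching an Olfr window, 7.71% (exact binomial interval 6.64% to 8.90%) in JM08, 2.12% (1.81% to 2.45%) in JM11 and 5.57% (4.81% to 6.40%) in JM12 had ends at most 8 kb apart. Over all autosomal PETs the shares were 22.2%, 6.11% and 14.5%. In the gaps of at least 500 kb they were 9.10%, 2.84% and 7.24%, above the upper bound of the Olfr interval in each experiment. A PET crossing a window edge counts as touching, in every set alike. A PET between chromosomes can touch a small set with either end, while a short PET mostly has both ends in it. These shares therefore depend on the size of a set and do not measure how large a difference is. By density of ends, the short class over Olfr windows was 0.949 of that over the gaps in JM08, 0.765 in JM11 and 0.724 in JM12. In JM08 the gaps, at 0.533, lay inside the Olfr interval (0.433 to 0.587). The short PETs of the family had a median distance between ends of 301 bp in JM08 (173 PETs), 405 bp in JM11 (171 PETs) and 197 bp in JM12 (186 PETs), and all short PETs of 230, 376 and 230 bp. The Olfr median was thus the longer of the pair in JM08 and JM11 and the shorter in JM12.

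A rise at gene boundaries was smaller for the family than for other genes, except within 2.5 kb in JM11, where the intervals overlapped. Within 500 bp outside a gene boundary the relative density for Olfr genes was 0.938 (0.847 to 1.04) in JM08, 1.05 (0.997 to 1.11) in JM11 and 0.724 (0.664 to 0.789) in JM12. For other protein-coding genes it was 5.30, 1.84 and 3.19. Inside the Olfr genes, whose median length is 951 bases, it was 0.686, 0.808 and 0.647. From 5 to 10 kb outside it was 0.597, 0.677 and 0.535, the lowest of the distances profiled in each experiment. The density within 2.5 kb of a boundary over that 10 to 50 kb outside was 1.18 (1.13 to 1.24), 1.33 (1.30 to 1.37) and 1.13 (1.09 to 1.18) for Olfr genes. For other genes it was 2.38, 1.34 and 1.69. In JM11 the Olfr ratio and that of other genes (1.33 to 1.35) had overlapping intervals, and in the dual-crosslinked experiments they were far apart. The overlap in JM11 depended on the width taken. Within 1 kb of a boundary the JM11 ratios were 1.34 (1.29 to 1.38) for Olfr and 1.68 (1.67 to 1.69) for other genes. For genes with no other gene within 10 kb, at the 2.5 kb width, they were 1.30 (1.26 to 1.34) and 1.33 (1.32 to 1.34).

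**Figure D2:**
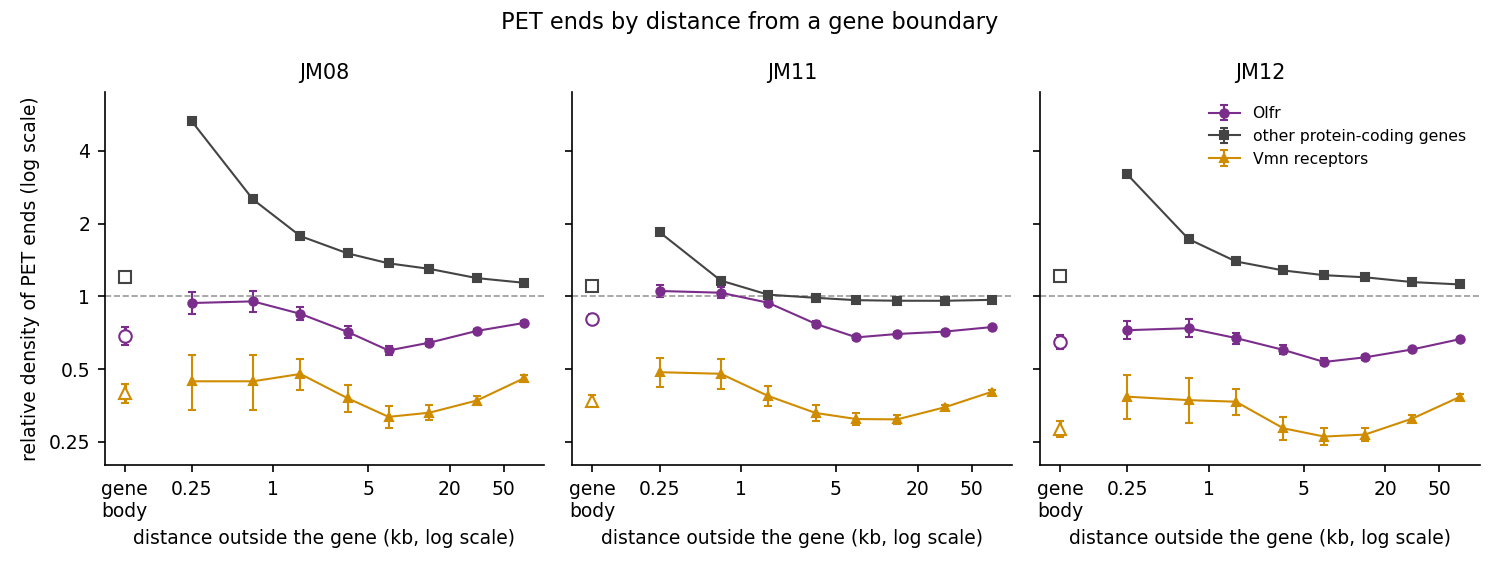
Relative density of PET ends (log y axis, autosomal mean = 1) by distance outside a gene boundary (log x axis, kb), with the gene body as an open symbol at the left of each panel, for Olfr, Vmn and other protein-coding genes in the 3 experiments. Bars are 95% counting intervals. Other genes reach 5.30, 1.84 and 3.19 within 500 bp, and the Olfr genes stay between 0.724 and 1.05 there.

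The windows nonetheless held more ends than the DNA around them. In the 47 Olfr clusters (neighbours under 1 Mb apart), the DNA between windows that touches no other gene window had relative densities of 0.554, 0.590 and 0.495. The Olfr windows were higher by a factor of 1.50 in JM08, 1.58 in JM11 and 1.38 in JM12. The factor for the short class was 1.67, 1.68 and 1.44. For PETs between chromosomes it was 1.49, 1.58 and 1.38. Among bins of 1 kb, 23.2% of those in Olfr windows held no end in any experiment, 43.9% of those between the windows and 22.6% over all autosomes. Empty bins can mark DNA to which short tags do not map, but at this depth they also arise where few ends fall, and their part in the difference was not tested. With empty bins left out everywhere, densities relative to the remaining autosomal bins were 0.842, 0.945 and 0.693 over Olfr windows. Between the windows they were 0.757, 0.808 and 0.678, so the windows stayed the higher, but by less.

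The 22 clusters with at least 10 members held 1020 of the placed members. Windows were denser than the DNA between them in 19 of these clusters in JM08, 21 in JM11 and 20 in JM12, and in 18 clusters in all 3 experiments. The exceptions were a cluster on chromosome 4 from Olfr62 to Olfr1328, those on chromosome 11 from Olfr1396 to Olfr1380 and from Olfr30 to Olfr225, and that on chromosome 13 from Olfr1370 to Olfr1359. The second of those on chromosome 11 was the only cluster in which the windows were the lower in all 3 experiments, at 0.661, 0.837 and 0.690 against 0.708, 0.868 and 0.809. It spans 28 other protein-coding genes.

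The 5 largest clusters were close to each other in JM08 and further apart in JM11. The cluster of 222 members on chromosome 2 (chr2:85330967-90401674) had relative densities over its windows of 0.852, 0.946 and 0.596 in JM08, JM11 and JM12. The cluster of 126 members on chromosome 7 (chr7:102476773-105369317), which holds the class I receptors, the group related to those of fish, had 0.815, 1.06 and 0.754. The cluster of 95 members on chromosome 9 (chr9:37711348-40188094) had 0.936, 1.03 and 0.691. The neighbouring class II cluster of 67 members on chromosome 7 (chr7:106677534-108894405) had 0.828, 0.934 and 0.616, and the cluster of 63 members on chromosome 19 (chr19:11828077-13919972) had 0.838, 0.777 and 0.680. In JM12 the interval of the class I cluster (0.684 to 0.830) lay above that of the chromosome 2 cluster (0.548 to 0.648). In JM08 the intervals of all 5 clusters overlapped.

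**Figure D3:**
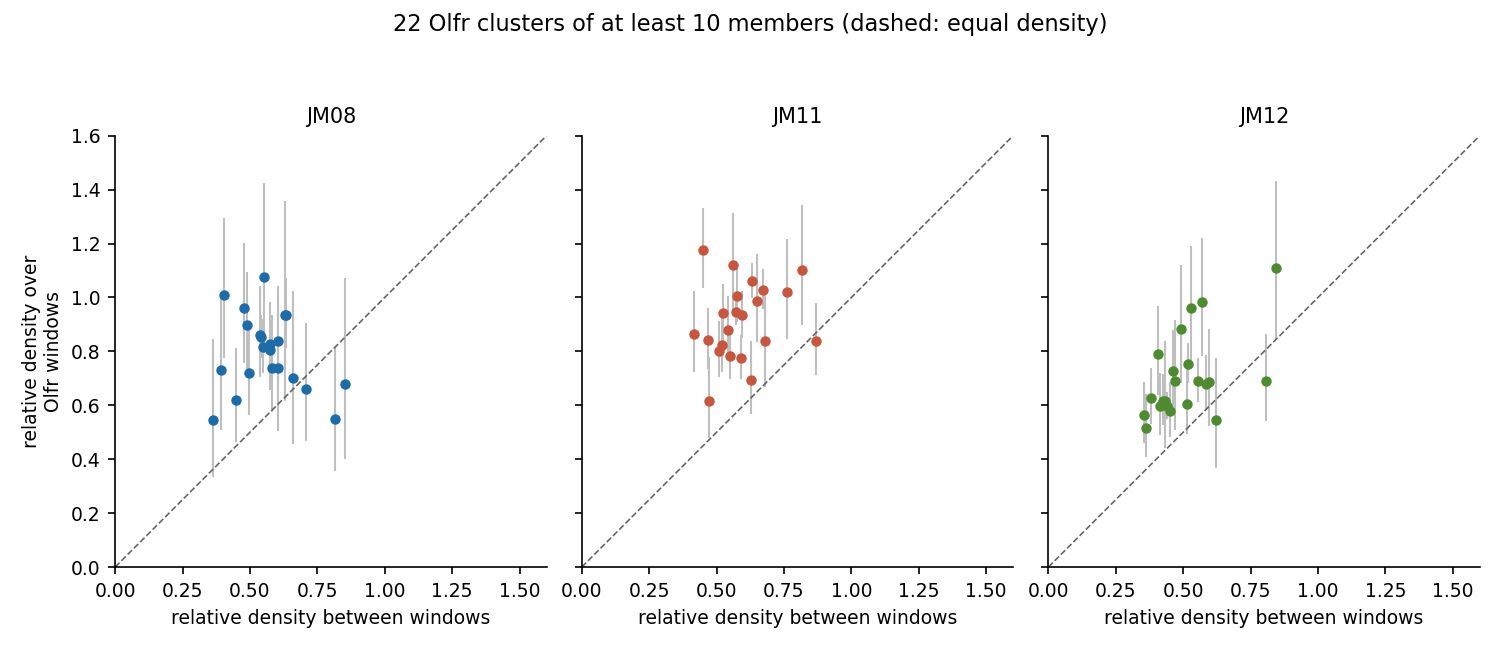
Relative density of PET ends over the Olfr windows of a cluster (y axis) against the DNA between its windows (x axis), for 22 clusters with at least 10 members in each experiment. Grey bars are 95% counting intervals of the windows. Points above the dashed line of equal density number 19 in JM08, 21 in JM11 and 20 in JM12.

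Single windows held few ends, so their values are coarse. A median window of 5951 bases would hold 2.28 ends in JM08, 6.95 in JM11 and 4.06 in JM12 at the autosomal mean. The members had a median of 2, 7 and 3 ends, with 194, 14 and 115 members at 0. Over all experiments together a member had between 0 and 115 ends with a median of 12. The highest count belonged to Olfr183, whose long gene model gives a window of 76199 bases, and its relative densities were 0.615, 0.776 and 0.539. The squared deviation of the members' counts from a uniform density was 1.47, 1.98 and 1.63 times what Poisson counting of independent ends gives. The 2 ends of a PET are not independent, and 161 of the 173 short Olfr PETs in JM08 had both ends in an Olfr window. The excess over counting error is therefore overstated, by an amount that was not measured.

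Of the 1103 members, 51 (4.62%) were above the autosomal mean in all 3 experiments, against 39.2% of all 20559 autosomal protein-coding genes. The count required all 3 experiments, and it was 135 (12.2%, against 53%) without JM08, 83 (7.52%, against 51%) without JM11 and 196 (17.8%, against 43.4%) without JM12. With genes taken without flanks it was 33. No member reached 2 times the mean in all 3 experiments, which 4.3% of all genes did, and none reached 5 times the mean in any experiment. Of all genes, 7.99% exceeded 5 times the mean in JM08, 0.340% in JM11 and 1.98% in JM12. At the low end, 100 members (9.07%) were below 0.5 times the mean in all 3 experiments, against 6.35% of all genes, so the family differed less from other genes there. Most Olfr windows are short. They held medians of 2, 7 and 3 ends in JM08, JM11 and JM12, against 15, 30 and 25 for all genes. The shares passing in all 3 experiments therefore differ in counting error too, and they were not taken for short genes alone. Among 1313 other genes under 2 kb long, 12.0% exceeded 5 times the mean in JM08, 1.07% in JM11 and 4.80% in JM12. Of these short genes, 41.4%, 45.5% and 46.2% were above the mean itself in JM08, JM11 and JM12. For the members it was 30.6%, 47.0% and 19.8%, lower in JM08 and JM12 but not in JM11.

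**Figure D4:**
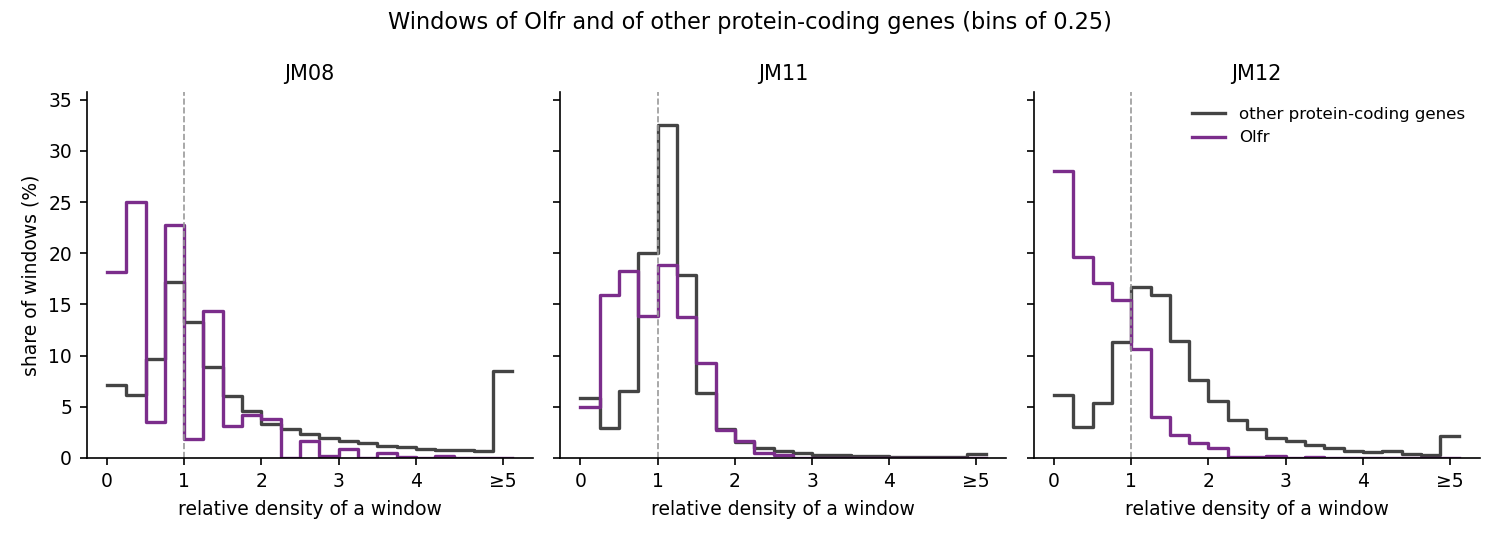
Share of windows (y axis, %) by relative density (x axis, bins of 0.25, with all windows at 5 or more in the last bin) for 1103 Olfr windows and for the other protein-coding genes in each experiment. The Olfr windows have no entry at 5 or more, where JM08 has 8.44% of the other protein-coding genes. The uneven Olfr steps in JM08 come from windows of near-equal length with 0, 1, 2 or more ends.

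The members with the highest windows, ranked by the lowest of the 3 relative densities among the 50 members with at least 5 ends in each experiment, were Olfr556, Olfr1496, Olfr452, Olfr750, Olfr701, Olfr906, Olfr50, Olfr32, Olfr16 and Olfr132. Olfr556, a class I receptor on chromosome 7, had 5, 14 and 7 ends in JM08, JM11 and JM12, or 2.16, 1.99 and 1.71 times the mean. Olfr1496 on chromosome 19 had 7, 15 and 7 ends, or 3.01, 2.12 and 1.69 times the mean. These 10 windows rest on 19 to 48 ends each and were picked for being high, so their level is a description. Most of their ends joined other chromosomes, 22 of 26 for Olfr556 and 25 of 29 for Olfr1496. This was so for the family as a whole, with 1977 of 2410 ends in JM08, 7485 of 8237 in JM11 and 2993 of 3511 in JM12. None of the 10 overlapped the window of another protein-coding gene.

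The 5 members with the lowest density were those without any end, Olfr1506 and Olfr1565 on chromosome 2, Olfr247 on chromosome 10, and Olfr55 and Olfr239 on chromosome 17. At the autosomal mean, Olfr1506 and Olfr1565 would each hold 27.0 ends over all experiments and the other three 13.3 each. By the exact 95% Poisson interval, a count of 0 allows a relative density of up to 0.137 for the first pair and up to 0.278 for the rest. A further 6 members had 1 end. Members with near-identical copies were low as a group. Of the 4 members whose upstream sequence is identical to that of another member, Olfr1506 and Olfr1565 had no end, Olfr596 had 1 and Olfr603 had 3.

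The density was lower the larger the share of a member's promoter sequence that recurred in another member. For 522 members whose 300-base promoter shared no word of 20 bases with another Olfr promoter, the relative density was 0.879 (0.829 to 0.932) in JM08, 1.03 (0.998 to 1.06) in JM11 and 0.761 (0.726 to 0.797) in JM12. For 378 members sharing up to 50% of words it was 0.813 (0.755 to 0.874), 0.836 (0.803 to 0.870) and 0.613 (0.576 to 0.652), in JM08 overlapping the interval of the first group. For 38 members sharing more than 50% it was 0.401 (0.284 to 0.550), 0.354 (0.288 to 0.430) and 0.232 (0.165 to 0.317), and in each experiment this interval lay below those of both other groups. The 165 members without a promoter sequence in the table were at 0.794, 0.961 and 0.672. Members with no shared word were thus at the autosomal mean in JM11, within counting error, and below it in JM08 and JM12. No source used here states how tags that map to several places were treated, and the part of mapping in this order was not tested.

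In JM12 the windows nearest to other protein-coding genes were the densest. The 20 members within 5 kb of such a gene, whose windows overlap the window of that gene, were at 1.12 (0.930 to 1.34) in JM12. The 74 at 5 to 20 kb were at 0.844 (0.752 to 0.945), an interval that overlaps the first. The 350 at 20 to 100 kb were at 0.723 and the 659 further away at 0.620 (0.591 to 0.650). In JM08 the same groups were at 0.898, 0.816, 0.812 and 0.837, and in JM11 at 1.08, 0.943, 0.912 and 0.937. The intervals of the nearest and the furthest group overlapped in JM08 and in JM11. Whether the experiments differ in this was not tested, since each is 1 pool.

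**Figure D5:**
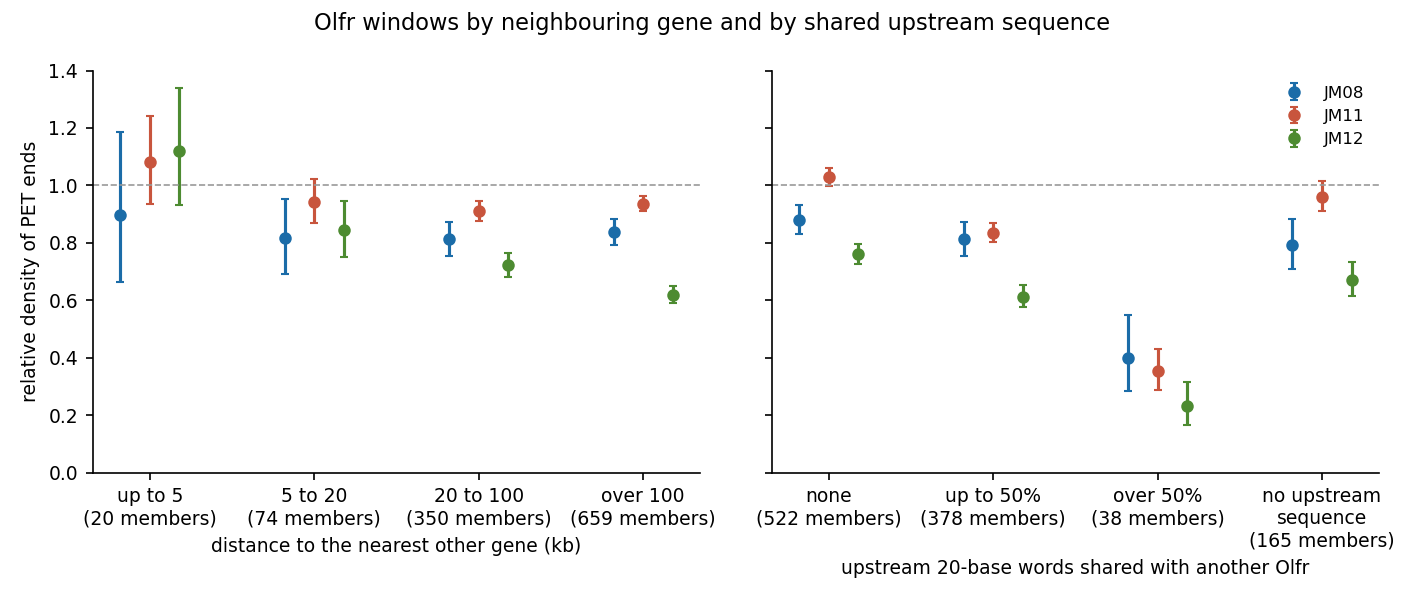
Relative density of PET ends (y axis) over Olfr windows grouped by distance to the nearest other protein-coding gene (left) and by the share of 20-base promoter words found in another Olfr promoter (right), with the number of members under each group. Points are experiments and bars are 95% counting intervals. The 38 members sharing more than 50% of words lie at 0.232 to 0.401.

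Base composition of the promoter was matched to a degree by other genes. The 793 other protein-coding genes with promoter GC in the middle 50% of the Olfr range had relative densities of 0.931, 0.866 and 0.826, and 0.883, 0.845 and 0.734 in the short class. Over all PETs this was above the Olfr value in JM08 and JM12 and below it in JM11, and in the short class it was above the Olfr value in all 3 experiments. The 269 of these genes under 2 kb long were at 0.630 (0.567 to 0.699), 0.562 (0.527 to 0.597) and 0.481 (0.439 to 0.525), below the Olfr windows in all 3 experiments, and at 0.384, 0.477 and 0.313 in the short class. Other genes here are all those without an Olfr symbol, so receptor families such as the Vmn genes were not left out. The share of such families among the 269 was not examined. 

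Receptors of the Olfr family that have been reported in tissues outside the nose were given as a fixed list of 7. Olfr78, described in kidney and carotid body as a receptor for short-chain fatty acids, had 10 ends in JM08, 50 in JM11 and 22 in JM12, or 1.10, 1.80 and 1.36 times the mean over its long window. Its neighbour Olfr558, described in blood vessels, had 8, 33 and 11 ends, or 1.41, 1.92 and 1.10. Olfr16, described in sperm and muscle, had 5, 10 and 5 ends, or 2.15, 1.42 and 1.21. These were the 3 of the 7 above the mean in all experiments, against 39.2% of all genes.

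The other receptors of this list were not above the mean throughout. Olfr544, reported in liver, fat and pancreas, had 3, 9 and 6 ends, or 0.850, 0.838 and 0.958 of the mean. All 18 were in PETs between chromosomes, the class that held most ends of the family. Olfr734, described as a receptor for the fasting hormone asprosin, had 0, 10 and 8 ends, or 0, 1.42 and 1.95. A median window would hold 2.28 ends in JM08 at the mean, so its 0 ends there are within counting error of the mean. Olfr109 had 1, 11 and 2 ends, or 0.438, 1.58 and 0.494. Olfr1393, described in the kidney tubule, had 14, 28 and 24 ends, or 1.09, 0.716 and 1.05, and its long window overlaps that of Mgat1, a glycosyltransferase gene expressed widely.

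Windows of 20 members, those within 5 kb of another protein-coding gene, overlapped the window of that gene. Their relative density ranged from 0 to 1.73 in JM08, with a median of 0.869, from 0.140 to 2.51 in JM11, with a median of 1.19, and from 0 to 3.33 in JM12, with a median of 0.984. Of these, 4 were above the mean in all 3 experiments, against 39.2% of all genes. Olfr94, next to the ubiquitin-like gene Ubd, had 3, 7 and 14 ends, or 1.27, 0.973 and 3.33. Olfr314, which overlaps Fam183b, had 3, 18 and 11 ends, or 1.27, 2.51 and 2.63. These are the highest windows of the 20 in JM12 and JM11, and Olfr94 is the highest of the whole family in JM12.

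Few PETs of the table showed contacts of Olfr genes over short distances. Over all experiments, 5 of 3075 PETs with ends 8 to 100 kb apart touched an Olfr window, 0.163% (exact interval 0.0528% to 0.379%). They were 0 of 714 in JM08, 2 of 397 in JM11 and 3 of 1964 in JM12. Of PETs between chromosomes, 0.569% touched an Olfr window in JM08, 0.586% in JM11 and 0.445% in JM12. The exact upper bound for the 0 of JM08 was 0.515%, below that share. The intervals of JM11 (0.0611% to 1.81%) and JM12 (0.0315% to 0.446%) included theirs, so a difference was not detectable at this depth in these experiments. Among all PETs over 8 kb, 2 had both ends in Olfr windows of one cluster, both in JM11. The first joined points 362144 bp apart in the windows of Olfr585 and Olfr607, both class I receptors. The second joined points 21362 bp apart that both lie in the long window of Olfr1280. Of these, 1 point also lies in the window of Olfr1282, which is inside that of Olfr1280, so the windows form 1 merged stretch. Thus 1 PET joined 2 separate stretches, and none did without JM11. Taken over whole clusters instead of windows, 26 such PETs had both ends in one cluster. Of these, 15 were 8 to 100 kb apart, 0.488% of all such PETs, while the clusters cover 1.43% of the autosomal span and hold 0.976% of its ends.

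Contacts between Olfr genes of different chromosomes did not exceed, beyond counting error, the number that their own ends give. There were 20 such PETs, against 15.4 given by the share of ends on the Olfr windows of each chromosome, a ratio of 1.30 (0.792 to 2.00). The counts were 5 against 2.53 in JM08, 10 against 9.85 in JM11 and 5 against 3.05 in JM12. The 20 PETs joined 20 different pairs of windows in 18 pairs of clusters, with at most 3 PETs for a pair of clusters. Over whole clusters, 210 PETs stood against 209 (ratio 1.01, 0.875 to 1.15), so a ratio above 1.15 lies outside the interval there. For the gaps of at least 500 kb the ratio was 1.01 (1.00 to 1.01), and for other protein-coding genes it was 1.00 (1.00 to 1.01). Some pairs are named: Olfr16 was joined with Olfr1022 in JM08, Olfr558 with Olfr883 in JM08 and with Olfr26 in JM11, and Olfr544 with Olfr855 in JM12, each by 1 PET.

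The vomeronasal receptors (Vmn1r and Vmn2r genes), a second large chemosensory family of tandem clusters that detects pheromones, were lower than the Olfr family. Their 351 windows had relative densities of 0.420 (0.391 to 0.450), 0.388 (0.373 to 0.404) and 0.311 (0.293 to 0.330), so that the Olfr windows were 1.98, 2.40 and 2.19 times as dense. In the class at most 8 kb apart the Vmn windows were at 0.209, 0.191 and 0.127. Of the Vmn bins of 1 kb, 56.7% held no end in any experiment, against 23.2% for Olfr. With empty bins left out everywhere, the Vmn windows were at 0.748, 0.696 and 0.562 relative to the remaining autosomal bins. The Olfr windows were then at 0.842, 0.945 and 0.693, a smaller difference. The part of unmappable sequence in the difference was not tested.

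Genes that act in olfactory neurons to choose, silence or gather receptor genes were given as a list of 8. Of these, 6 were above the autosomal mean in all 3 experiments, with a median of 2.16 in JM08, 1.22 in JM11 and 1.70 in JM12, against 39.2% of all genes. Atf5, a stress-response transcription factor, had 48, 21 and 32 ends, or 13.3, 1.91 and 4.99 times the mean. Ldb1, the cofactor that bridges Lhx2-bound enhancers, had 3.98, 1.11 and 2.65. Lhx2 itself had 1.03, 1.16 and 1.32. Kdm1a, a histone demethylase needed to open a receptor gene, had 0.955, 1.18 and 1.44 and was one of the 2 below the mean in JM08, with the transcription factor gene Ebf1 at 0.956.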

How the data were processed

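Pol II ChIA-PET of mouse liver was deposited by the authors as 1 table of PET positions without a header, in bases on mm10, with 8 libraries pooled into 3 experiments. Bowtie2 and mm10 are named per the submitters' processing notes, and no source used here gives the filters on mapping, duplicates and linkers. The deposited positions carry no normalization. Mitochondrial PETs were left out. Each end was counted at its position. Densities are ends per base over those of the autosomal span, separately for PETs at most 8 kb apart, longer, and between chromosomes. Intervals are exact 95% Poisson (on PETs) or Clopper-Pearson binomial intervals and cover counting error only, since PETs carry no molecular identifiers. Expected PETs between chromosomes are products of the shares of ends that each chromosome's windows take in such PETs.

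Genes, promoters and coordinates came from RefSeq tables of GRCm38.p6, the same build as mm10. Of 20665 autosomal protein-coding genes, 20559 were placed. The autosomal depth was 0.384, 1.17 and 0.681 ends per kb in JM08, JM11 and JM12. Members and lists were chosen with earlier results of these data known. Named members were the 10 with the highest lowest-of-3 density among those with at least 5 ends in each experiment, the 5 lowest, those without ends, a fixed list of 7, windows overlapping another gene, and the 5 largest clusters. With 1 pool per experiment no test was made. Day and night were not compared, because the table does not separate libraries. Alternatives were other flanks, references, class limits, collapsed near-duplicates, windows free of other genes and each experiment left out. After seeing the data, single linkers and 1 kb bins with ends were added. Of the Kupffer, endothelial and erythroid markers on autosomes, 0 of 4, 2 of 5 and 1 of 4 were above the mean in all 3 experiments, against 39.2% of all genes. The functions were tested on simulated PETs. Python 3.11.15, NumPy 2.4.6, pandas 2.3.3, SciPy 1.17.1 and Matplotlib 3.10.9 were used.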

Additional observations from a re-analysis of the deposited data

How the results depend on the processing

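Of 86 values under alternatives, 69 stayed within the interval of the main value or within 1.5 times a main count. Without flanks the relative density over Olfr genes was 0.686, 0.808 and 0.647 in JM08, JM11 and JM12, and the share of PETs at most 8 kb apart in JM12 was 6.51%. With flanks of 5 kb the density was 0.779, 0.863 and 0.646. Against gaps of at least 500 kb it was 1.02, on the other side of 1, in JM08, and 0.954 in JM11 and 0.883 in JM12. With linker ATGT alone it was 0.873 in JM11. The count of windows above the mean in all experiments was 33 without flanks, and leaving out 1 experiment in turn it was 83 to 196, where fewer experiments have to be passed. PETs over 8 kb joining 2 separate stretches of Olfr windows in one cluster numbered 0 to 1 with 1 experiment left out. Over whole clusters, 26 had both ends in one cluster. Leaving out 1 experiment, the ratio of observed to chance PETs between chromosomes was 1.16 to 1.79. Class limits of 4 or 20 kb, collapsed near-duplicates (1.93% of PETs in JM08), windows free of other genes, and a reference without the 100 densest 10 kb bins left every density, share and ratio they were run for within its interval and the counts within 1.5 times. No paired analysis was possible because the table does not separate the libraries that carry the replicate numbers. Depth limits single windows, which hold 2 to 7 ends at the mean, and the counts of rare contacts.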

Other observations

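Smaller chemosensory families did not share the low level of the Vmn receptors. The 35 windows of bitter taste receptors (Tas2r) had relative densities of 0.929 (0.716 to 1.19) in JM08, 1.24 (1.09 to 1.39) in JM11 and 0.897 (0.739 to 1.08) in JM12. The 15 windows of trace amine receptors (Taar), which are also expressed in olfactory neurons, had 0.983, 1.02 and 0.712. In JM11 the Tas2r interval lay above that of the Olfr windows (0.913 to 0.954). Hox genes, developmental regulators that lie in compact clusters, were at 1.25, 1.27 and 1.61, with 2.64 (1.98 to 3.45) in the class at most 8 kb apart in JM12. Both linkers of JM11 were counted separately and gave Olfr densities of 0.873 (0.832 to 0.916) for ATGT and 0.951 (0.928 to 0.975) for TAAG, with intervals that do not overlap, and no source used here ties a linker to a time point.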
